A study of Homo sapiens with 6 samples.

Results

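The genes described here encode the pro-apoptotic side of the BCL2 family: the pore-forming effectors BAX and BAK1, and the BH3-only genes BID, BCL2L11, BBC3, PMAIP1, BAD, BIK, BMF and HRK. They were taken by symbol, and 10 of the 65746 symbols of the count table matched. RNA sequencing had been done on SU-DHL-8, an established human line of diffuse large B-cell lymphoma with wild-type genotype in the labels, after 24 h with 100 nM erianin or with a matched concentration of DMSO. Erianin is a plant bibenzyl known as a ligand of tubulin. Each group had 3 libraries of this single line, numbered 1 to 3 as replicate experiments, and how separate the cultures were is not given in the sources used here, so the p-values speak only of variation among these libraries, part of which may be technical.

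In healthy cells the effectors stay inactive, held in check by prosurvival relatives such as BCL2, BCL2L1 and MCL1. BH3-only proteins carry a short BH3 helix that fits the groove of these relatives. Some of them, such as BID and BIM (the product of BCL2L11), can also activate BAX and BAK1 directly, whereas others, such as BAD and HRK, act by occupying prosurvival proteins. Active BAX and BAK1 perforate the outer mitochondrial membrane and release cytochrome c. Several BH3-only genes are known to be set at the level of transcription, PMAIP1 and BBC3 by stress-responsive factors and BCL2L11 by FOXO factors, and B cells depend on BIM for deletion.

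Erianin changed 3 of the 10 genes. PMAIP1 rose by 50.1%, HRK fell to 0.597 of its DMSO level and BCL2L11 fell to 0.755 (edgeR's quasi-likelihood test, Benjamini-Hochberg adjusted p under 0.05 over all genes tested). The other 7, both effectors among them, were not called. All 10 were tested, and 3 of 10 stands beside 24.2% of the 11550 genes tested that were called in either direction (11.8% higher and 12.3% lower). The share among these genes was therefore near the background. DMSO replicate 1 differed widely from the rest, and 5 of the 10 genes had less than 70% of their level in the other DMSO libraries there, so many results are given with and without it. All 3 calls ended without erianin replicate 1 (edgeR adjusted p = 0.059 to 0.13) and on the unrescaled log2 TPM scales (limma adjusted p up to 0.62), and HRK alone was called without erianin replicate 2. The median log2 fold change of the 10 genes was 0.049, against -0.0033 over all genes tested, and without DMSO replicate 1 it was -0.24, against 0.029 over all genes.

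Promoter stretches of the 3 genes that changed are shown here so that the reader has the regulatory sequence beside the values. They were read from RefSeq (GRCh38.p14), 5′ to 3′ on the gene's own strand, and cover up to 250 bases before the RefSeq start, ending earlier where a GENCODE 29 exon begins. PMAIP1 is shown for chr18:59899746-59899947 (plus strand, 202 bases), HRK for chr12:116881442-116881691 (minus strand) and BCL2L11 for chr2:111120664-111120913 (plus strand). Capitals mark the CRE half-site TGACG, the FOXO site GTAAACA and the GC box GGGCGG, each on either strand.
PMAIP1: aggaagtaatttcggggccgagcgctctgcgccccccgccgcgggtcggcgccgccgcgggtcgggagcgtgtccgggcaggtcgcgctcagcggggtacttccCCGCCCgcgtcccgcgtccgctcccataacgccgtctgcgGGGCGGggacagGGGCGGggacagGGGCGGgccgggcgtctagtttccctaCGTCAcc
HRK: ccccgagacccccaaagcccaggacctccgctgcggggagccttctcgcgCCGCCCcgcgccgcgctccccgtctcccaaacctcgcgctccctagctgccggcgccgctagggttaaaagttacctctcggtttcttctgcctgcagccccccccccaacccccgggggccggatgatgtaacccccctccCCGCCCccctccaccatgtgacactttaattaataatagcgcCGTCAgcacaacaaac
BCL2L11: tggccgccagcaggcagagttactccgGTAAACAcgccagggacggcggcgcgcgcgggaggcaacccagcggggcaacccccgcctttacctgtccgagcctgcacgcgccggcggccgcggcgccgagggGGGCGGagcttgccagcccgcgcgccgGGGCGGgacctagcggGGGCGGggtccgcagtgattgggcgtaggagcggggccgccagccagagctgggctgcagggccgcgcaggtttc
PMAIP1 and HRK each held 1 CRE half-site, starting 55 and 16 bases before the RefSeq start. A CRE half-site occurred in 21.2% of 35116 RefSeq windows of 250 bases, and in 5 of the 9 genes of the set that had an entry. The RefSeq start need not be that of the longest GENCODE 29 span: for BCL2L11 it is base 111120914, and the stretch shown lies inside the GENCODE 29 gene, outside its exons. BCL2L11 held the 1 FOXO site of the set, 223 bases before its RefSeq start, and 2.98% of windows hold one. GC boxes were common, with 4, 2 and 3 in the stretches of PMAIP1, HRK and BCL2L11, in 8 of the 9 genes and in 42.6% of windows. The motifs overlapped nowhere in these stretches, and a match describes the letters only.

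Depth was similar between libraries, with total counts of 30956443 to 35588728. Levels are given as CPM after TMM scaling, that is, as counts relative to library size, and 3 counts, used as a floor, equal 0.084 to 0.097 CPM, which covers counting error only. Paired with either of the other controls, DMSO replicate 1 gave a biological coefficient of variation of 0.292 or 0.295. Those controls gave 0.0380 between them, and pairs of erianin libraries gave 0.0336 to 0.0815. All 8 B-cell markers examined were above 1 CPM in at least 1 library, with a summed level of 2790 to 3750 CPM with DMSO and 2290 to 2550 CPM with erianin. The T-cell markers CD3D, CD3E, CD3G and CD2 and all 5 erythroid markers stayed under 1 CPM in every library. Summed levels were 2.97 to 3.75 CPM with DMSO and 1.37 to 2.17 CPM with erianin for the 5 T-cell markers, and 4.50 to 7.27 CPM and 9.39 to 10.6 CPM for the 5 myeloid markers. In bulk RNA, fewer cells with a transcript and less of it per cell cannot be told apart.

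**Figure D1:**
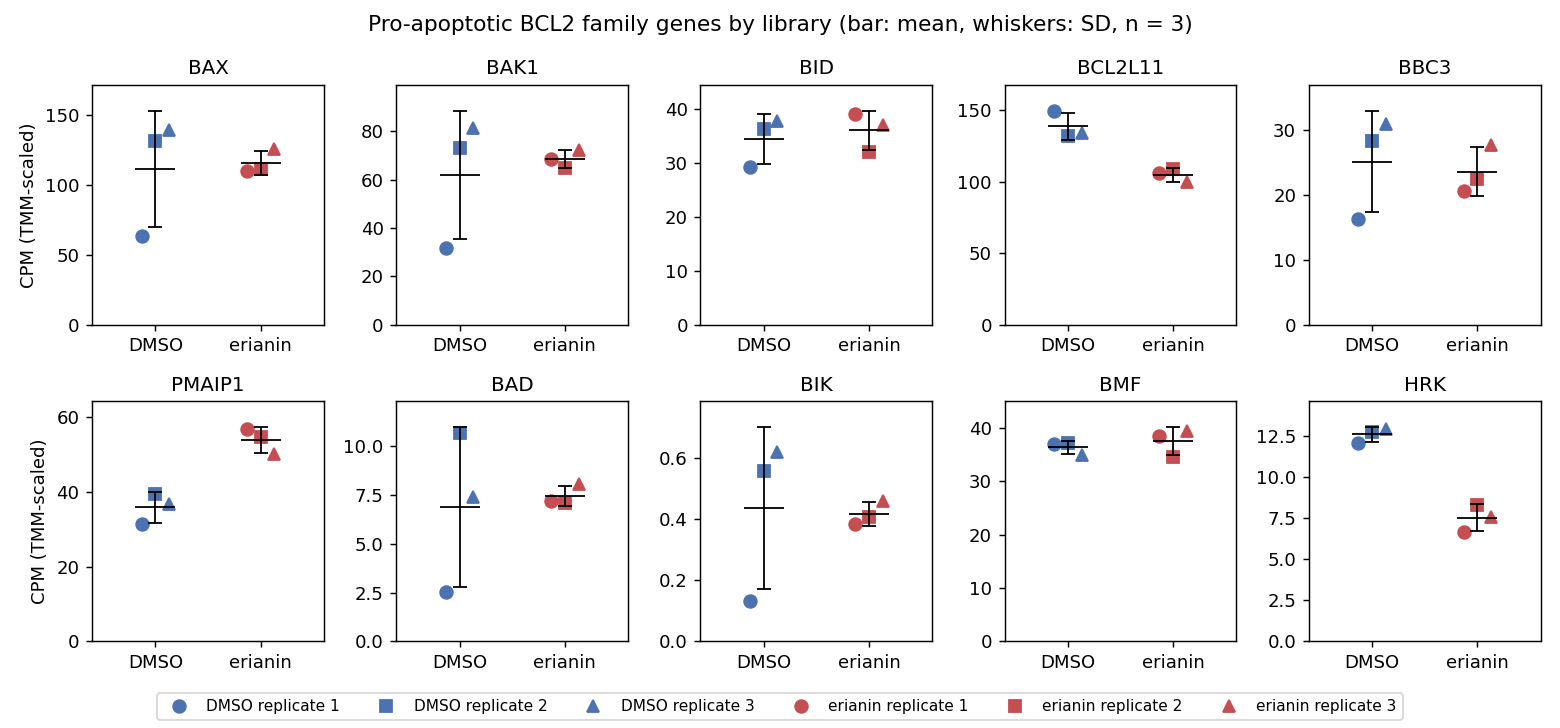
CPM (TMM-scaled, linear axes from 0) of each gene in the 3 DMSO and 3 erianin libraries; horizontal bars are group means and whiskers are SD (n = 3), and marker shapes give the replicate number. Of the 10 genes, PMAIP1, HRK and BCL2L11 had groups that did not overlap, beside 46.8% of all genes tested. In DMSO replicate 1, 5 of the 10 were under 70% of the mean of the other DMSO libraries, beside 21.2% of 11516 genes tested with a count there.

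The effectors BAX and BAK1 were measured first, since pore formation runs through them. BAX (chromosome 19, 48954815 to 48961798, plus strand) had 63.4, 131 and 139 CPM in DMSO replicates 1, 2 and 3. With erianin it had 110.1, 112 and 125 CPM. The erianin values thus lay above DMSO replicate 1 and below both other controls, and the group means were 111 ± 41.7 and 116 ± 8.36 CPM (SD, n = 3). Its log2 fold change was 0.055 (95% interval -0.58 to 0.69; edgeR adjusted p = 0.90).

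BAK1 (chromosome 6, 33572547 to 33580293, minus strand) behaved the same way across libraries. The DMSO libraries held 31.9, 73.1 and 81.3 CPM, and the erianin libraries 68.5, 64.8 and 72.5 CPM. DMSO replicate 1 was again far below the other 5 libraries. The log2 fold change was 0.14 (95% interval -0.58 to 0.87; edgeR adjusted p = 0.78). Without DMSO replicate 1 both effectors were lower with erianin in every library, and BAX was called (log2 fold change -0.21 ± 0.068, SE; edgeR adjusted p = 0.0092). BAK1 then had -0.16 ± 0.073 and was not called (edgeR adjusted p = 0.070). The direction for the effectors therefore turned with 1 control library. With all 6 libraries edgeR called neither gene. Limma-voom with sample quality weights called BAX (-0.25, limma adjusted p = 0.0021) and BAK1 (-0.17, limma adjusted p = 0.046) lower. Such weights give a deviant library less influence, so this fit is not independent of the fit without DMSO replicate 1.

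Among the BH3-only genes grouped here as possible activators of the effectors, PMAIP1 rose and BCL2L11 fell, while BID and BBC3 were not called. PMAIP1 encodes NOXA, which binds MCL1 with high affinity and promotes its degradation (chromosome 18, 59899948 to 59904306, plus strand). Its level was 31.5, 39.5 and 36.7 CPM in the DMSO libraries and 56.9, 54.8 and 50.1 CPM after erianin. Each erianin library was above each DMSO library. The means were 35.9 ± 4.09 and 53.9 ± 3.48 CPM, a log2 fold change of 0.59 ± 0.12 (SE; 95% interval 0.30 to 0.87; edgeR adjusted p = 0.015). Without DMSO replicate 1 it was 0.51 ± 0.080 (edgeR adjusted p = 6.4e-06). The call ended without erianin replicate 1 (edgeR adjusted p = 0.076) or erianin replicate 2 (edgeR adjusted p = 0.075).

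BCL2L11 encodes BIM, which binds every major prosurvival protein (chromosome 2, 111119378 to 111168447, plus strand). It had 149.9, 132 and 134 CPM with DMSO. With erianin it had 106, 109 and 99.6 CPM. The groups were apart by more than the spread within either, and here DMSO replicate 1 was the highest library rather than the lowest. The log2 fold change was -0.41 ± 0.10 (95% interval -0.64 to -0.17; edgeR adjusted p = 0.028), and -0.33 ± 0.064 without DMSO replicate 1 (edgeR adjusted p = 9.1e-05). The call ended when any library other than DMSO replicate 1 was left out (edgeR adjusted p = 0.061 to 0.13), with total counts as the only scaling (edgeR adjusted p = 0.092), with the replicate number as a block (edgeR adjusted p = 0.069) and on rescaled TPM (limma adjusted p = 0.13). BCL2L11 shares 727 of its 6658 exonic bases in GENCODE 29 with MIR4435-2HG on the opposite strand, which is listed at 0 in all libraries.

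BBC3 encodes PUMA, which binds every major prosurvival protein (chromosome 19, 47220822 to 47232766, minus strand). Its levels were 16.2, 28.2 and 30.9 CPM with DMSO and 20.5, 22.4 and 27.7 CPM with erianin. The groups overlapped through DMSO replicate 1 alone, and the log2 fold change was -0.094 (95% interval -0.67 to 0.48; edgeR adjusted p = 0.81). Once that library was left out, BBC3 was called lower (-0.32 ± 0.10, edgeR adjusted p = 0.010). It was also called lower with all 6 libraries when smooth trends in GC content and length were removed per library (-0.39, edgeR adjusted p = 0.011). The same held with sample quality weights (-0.41, limma adjusted p = 0.0003). BBC3 was above 0 but not called with total counts as the only scaling (0.020) and on the TPM scales (0.015 to 0.22). It was likewise above 0 without DMSO replicate 3 (0.079) or erianin replicate 1 (0.0090). Its longest GENCODE 29 transcript is 69.7% G and C, the highest of the 10 genes.

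BID encodes the substrate that CASP8 cleaves to link death receptors to mitochondria (chromosome 22, 17734138 to 17774770, minus strand). Its level was 29.2, 36.3 and 37.7 CPM in the DMSO libraries and 39.0, 31.9 and 37.0 CPM after erianin. The ranges overlapped in both directions. The log2 fold change was 0.066 (95% interval -0.26 to 0.39; edgeR adjusted p = 0.77), and -0.026 without DMSO replicate 1 (edgeR adjusted p = 0.82).

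**Figure D2:**
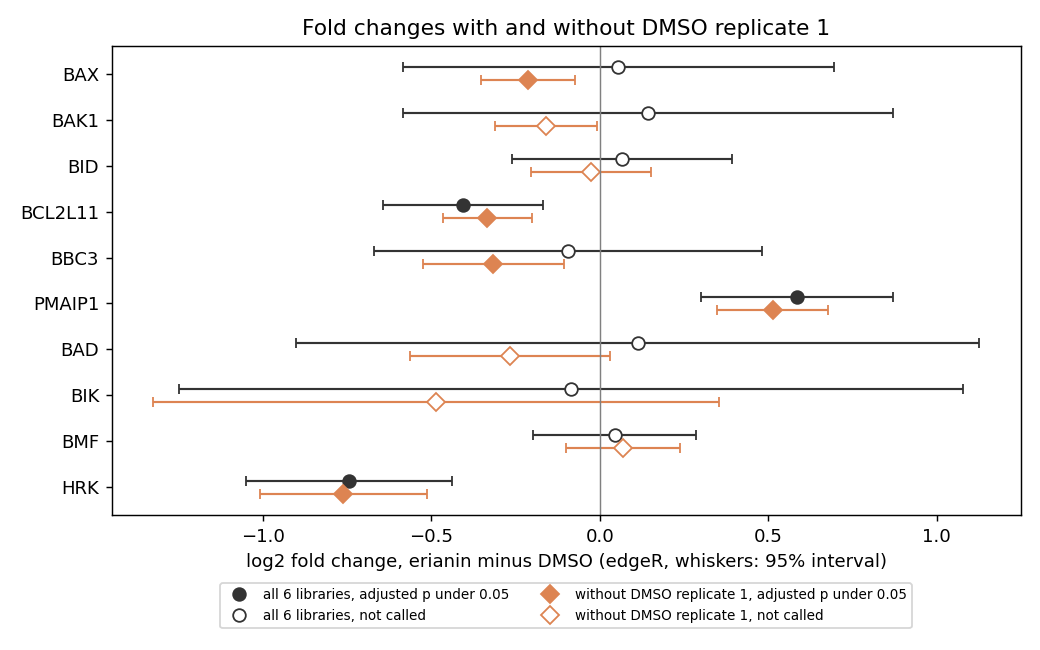
Log2 fold change (erianin minus DMSO) of the 10 genes by edgeR with all 6 libraries (circles) and without DMSO replicate 1 (diamonds); whiskers are 95% intervals and filled symbols have an adjusted p under 0.05. PMAIP1, HRK and BCL2L11 keep their side of 0 in both fits, while BAX moves from 0.055 to -0.21 and BAK1 from 0.14 to -0.16.

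Of the BH3-only genes grouped here as sensitizers, HRK fell and BAD, BIK and BMF were not called. HRK encodes Harakiri, a BH3-only protein that binds BCL2L1 (chromosome 12, 116856144 to 116881441, minus strand). It had 12.1, 12.8 and 12.9 CPM with DMSO. With erianin it had 6.66, 8.29 and 7.58 CPM. The DMSO libraries were close together, replicate 1 included, and each erianin library was lower. The log2 fold change was -0.75 ± 0.13 (95% interval -1.05 to -0.44; edgeR adjusted p = 0.0086), the largest in size of the 10. It was -0.76 ± 0.12 without DMSO replicate 1 (edgeR adjusted p = 7.8e-06). The call ended without erianin replicate 1, its lowest library (edgeR adjusted p = 0.059).

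BMF encodes a BH3-only protein that is held on the actin cytoskeleton through a dynein light chain (chromosome 15, 40087890 to 40108892, minus strand). The DMSO libraries held 37.0, 37.3 and 35.0 CPM, and the erianin libraries 38.6, 34.5 and 39.5 CPM. BMF was the steadiest of the set, with DMSO replicate 1 at 102% of the mean of the other DMSO libraries. Its log2 fold change was 0.044, with the narrowest interval of the uncalled genes (-0.20 to 0.29; edgeR adjusted p = 0.79).

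BAD encodes a BH3-only protein that survival kinases phosphorylate and inactivate (chromosome 11, 64269830 to 64284704, minus strand). Its DMSO libraries held 2.53, 10.7 and 7.41 CPM and its erianin libraries 7.18, 7.11 and 8.06 CPM. DMSO replicate 1 held 27.9% of the mean of the other DMSO libraries, and those also differed from each other. The log2 fold change was 0.11 (95% interval -0.90 to 1.13; edgeR adjusted p = 0.87), and -0.27 ± 0.14 without DMSO replicate 1 (edgeR adjusted p = 0.12). BAD shares 404 of its 1708 exonic bases with GPR137 on the opposite strand, whose mean was 48.7 CPM in DMSO and 25.8 CPM in erianin. The count of BAD could be too high or too low if strand was not used in counting.

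BIK, a BH3-only gene first known from its binding to BCL2 and viral relatives, was close to the floor (chromosome 22, 43110748 to 43129712, plus strand). It had 4, 18 and 21 counts with DMSO and 14, 14 and 16 counts with erianin. These equal 0.131, 0.555 and 0.618 CPM with DMSO and 0.382, 0.405 and 0.457 CPM with erianin. The log2 fold change was -0.085 with an interval of -1.25 to 1.08 (edgeR adjusted p = 0.92). It was -0.49 when DMSO replicate 1 was left out, with an interval of -1.33 to 0.36 (edgeR adjusted p = 0.33).

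The low values of DMSO replicate 1 were unequal across the set. As a share of the mean of DMSO replicates 2 and 3, it held 22.4% for BIK, 27.9% for BAD, 41.3% for BAK1, 46.9% for BAX and 54.8% for BBC3. It held 78.9% for BID, 82.6% for PMAIP1, 94.2% for HRK, 102% for BMF and 112% for BCL2L11. A level under 70% was found for 5 of these 10 genes and for 21.2% of 11516 genes tested with a count there. The 5 genes were also those with the most G and C in the longest transcript, from 56% (BIK) to 69.7% (BBC3). The rest had 37.2% (PMAIP1) to 54.8% (BMF). Among the 5 the order differed, since BIK had the lowest share and the least G and C. Whether GC content had a part in these low values was not tested. The 3 genes called with all libraries were among those least displaced. BMF and BID were little displaced as well and were not called. A displaced control widens the spread within its group, and the part of this in the calls was not tested. PMAIP1, HRK and BCL2L11 were all called in the same direction without DMSO replicate 1. That fit called 5 of the 10 genes, beside 55.3% of 11773 genes tested, and BAX and BBC3 were the 2 added. In that fit 1 of the 10 genes was higher (27.8% of genes tested) and 4 were lower (27.4%). The groups did not overlap for 3 genes with all libraries (46.8% of genes tested, 23.6% higher and 23.1% lower) and for 7 without DMSO replicate 1 (68.9%). Of the 7, PMAIP1 lay higher (34.6% of genes tested) and BAX, BAK1, BBC3, BIK, HRK and BCL2L11 lay lower (34.4%). The part of library quality in these differences was not tested.

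**Figure D3:**
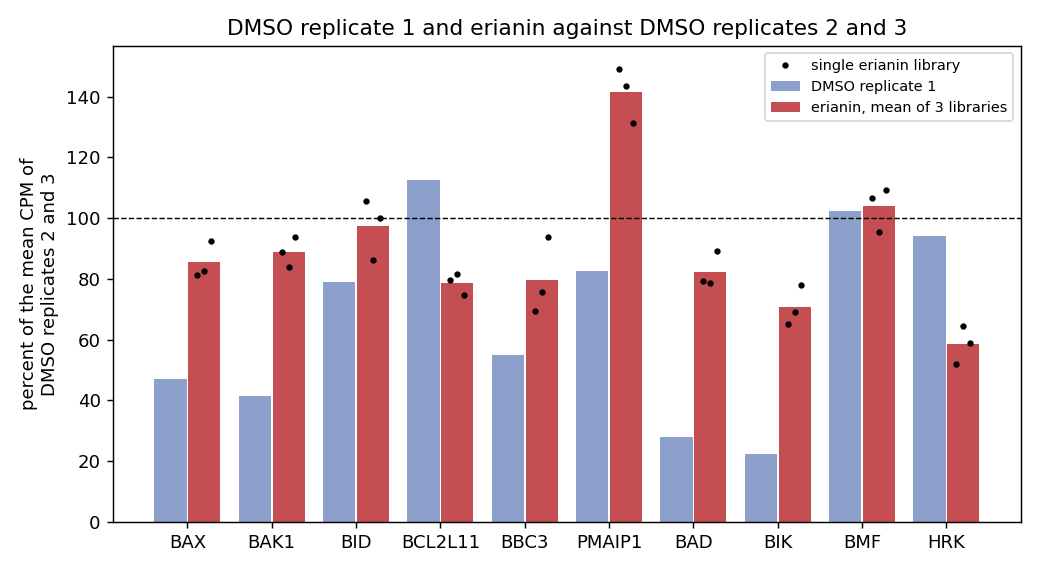
Level in DMSO replicate 1 and mean level in the 3 erianin libraries (dots: single libraries), each as a percentage of the mean CPM of DMSO replicates 2 and 3 (dashed line at 100). DMSO replicate 1 sits at 22.4% for BIK and 46.9% for BAX but at 94.2% for HRK and 112% for BCL2L11.

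Levels between genes were compared per transcript length, as the deposited TPM rescaled to the same sum in every library. BAX stood highest with DMSO (94.3 ± 31.8), followed by BAK1 (73.78 ± 28.99) and PMAIP1 (69.6 ± 4.41). The ranges of these 3 overlapped with DMSO, although BAX was above BAK1 in each of the 6 libraries. BBC3 (21.1 ± 5.73), BCL2L11 (20.8 ± 2.63) and BMF (20.4 ± 1.49) formed a second tier whose ranges overlapped as well. HRK (12.95 ± 0.307), BID (11.9 ± 1.02) and BAD (11.8 ± 6.67) followed, and BIK was lowest in each of the 6 libraries (3.49 ± 2.05 TPM, n = 3 each). PMAIP1 was above BBC3 in 6 of 6 libraries and BMF was above HRK in 6 of 6. With erianin PMAIP1 had the highest mean (110.0 ± 8.79 TPM), followed by BAX (104 ± 5.78) and BAK1 (86.5 ± 2.90). The ranges of PMAIP1 and BAX overlapped, since BAX was higher in erianin replicate 3 (110.1 against 99.85 TPM). In DMSO replicate 1 PMAIP1 (65.2 TPM) already lay above BAX (57.9) and BAK1 (40.9). BMF (21.99 ± 1.084), BBC3 (20.9 ± 2.98) and BCL2L11 (16.4 ± 1.10) came next. HRK moved from the seventh to the ninth place (8.10 ± 0.998 TPM), below BAD (13.6 ± 0.703) and BID (13.1 ± 1.15).

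**Figure D4:**
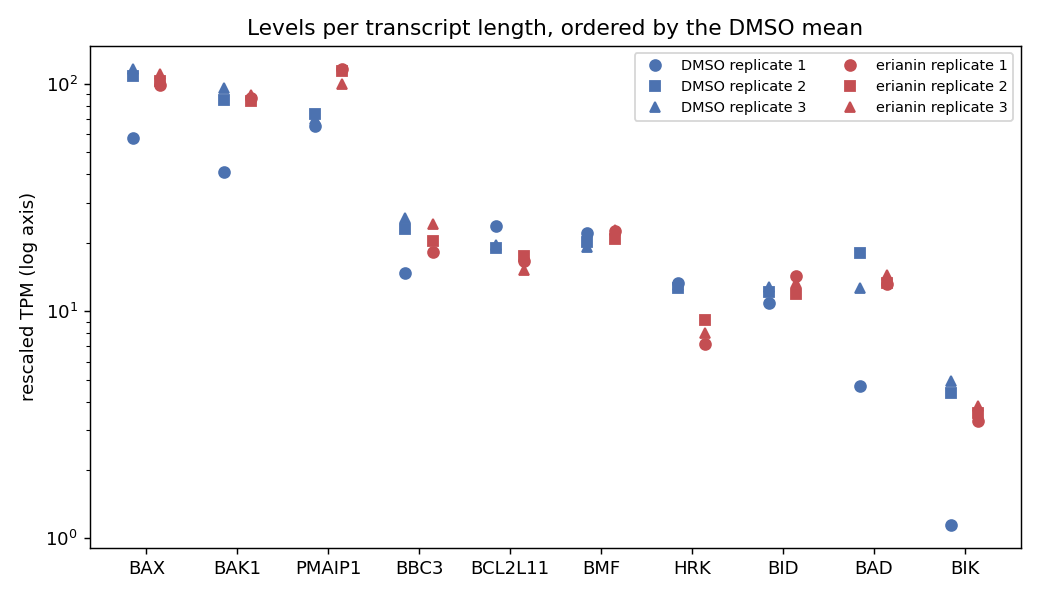
Rescaled TPM (log axis) of the 10 genes in each library, ordered by the DMSO mean; colours give the group and marker shapes the replicate number. The mean of PMAIP1 goes from 69.6 to 110.0, with BAX still above it in erianin replicate 3, and BIK is the lowest in both groups.

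Of the prosurvival partners that BH3-only proteins bind, MCL1 rose and BCL2L1 and BCL2 fell. The list held 6 genes and 5 were tested: 1 rose, 2 fell, and BCL2L2 and BCL2A1 missed the threshold (60.0% called, beside 24.2% of all genes tested). Their median log2 fold change was -0.49. MCL1, the main partner of NOXA, rose, with 285, 281 and 275 CPM in the DMSO libraries and 397, 409 and 380 CPM after erianin (0.49 ± 0.089, edgeR adjusted p = 0.0094). BCL2L1, which encodes BCL-XL, fell from 298.9 ± 7.296 to 203.7 ± 10.98 CPM (-0.55 ± 0.093, edgeR adjusted p = 0.0076), and BCL2 fell from 13.97 ± 0.352 to 8.59 ± 1.07 CPM (-0.70 ± 0.13, edgeR adjusted p = 0.011). MCL1 and BCL2L1 were not called without erianin replicate 1 or 2 (edgeR adjusted p up to 0.067), nor BCL2 without erianin replicate 1 (edgeR adjusted p = 0.066). BCL2A1 had 1.11 ± 0.125 and 0.791 ± 0.300 CPM and was not called (edgeR adjusted p = 0.31).

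Each changed BH3-only gene can be set against a partner within a library, as a ratio of TPM. These pairs were chosen after their values were seen and carry no test. PMAIP1 stood at 0.268, 0.342 and 0.324 of MCL1 with DMSO and at 0.349, 0.326 and 0.320 with erianin, so the 2 transcripts kept overlapping ratios. BCL2L11 stood at 0.0980, 0.0879 and 0.0909 of MCL1 with DMSO and at 0.0498, 0.0497 and 0.0488 with erianin, lower in each erianin library. Against BCL2 the ratio of BCL2L11 went the other way, with 3.28, 2.90 and 3.07 in DMSO and 3.82, 3.50 and 4.11 in erianin, higher in each erianin library. Against BCL2L1 the ratio of BCL2L11 was 0.105 to 0.117 with DMSO and 0.110 to 0.132 with erianin, with overlap. HRK stood at 0.0653 to 0.0732 of BCL2L1 with DMSO and at 0.0555 to 0.0695 with erianin, also with overlap.

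Few other members of the wider BCL2 family were called. Of 12 other BCL2 family and BH3-like genes, 11 were tested, and MOAP1, which binds BAX and promotes its activation, was the 1 called (9.09%, beside 24.2% of all genes tested). It rose from 37.42 ± 5.597 to 52.7 ± 0.571 CPM (0.49 ± 0.13, edgeR adjusted p = 0.033) and lost its call when any single library except DMSO replicate 1 was removed (edgeR adjusted p up to 0.12). BOK, the remaining effector-like gene, had at most 26 counts in a library and a log2 fold change of 0.99 ± 0.35, and was not called. Without DMSO replicate 1, 4 of these 11 were higher and 3 lower (63.6% called, beside 55.3% of all genes tested).

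Genes of the mitochondrial membrane and of the steps after the pore went up where they were called. All 16 were tested: 5 rose, 0 fell, and the remaining 11 missed the threshold. This was 31.2% called, near the 24.2% of all genes tested, with 11.8% of all genes higher. Their median log2 fold change was 0.31. MTCH2, an outer membrane protein that serves as a receptor for truncated BID, rose from 60.0 ± 13.3 to 114 ± 3.02 CPM (0.93 ± 0.17, edgeR adjusted p = 0.010). Its call ended without erianin replicate 2 or 3 (edgeR adjusted p up to 0.053). CYCS, which encodes cytochrome c, rose from 237 ± 33.1 to 332 ± 35.1 CPM (edgeR adjusted p = 0.042). APAF1, the scaffold of the apoptosome, rose from 23.2 ± 0.291 to 30.7 ± 2.49 CPM (edgeR adjusted p = 0.034). The porin gene VDAC3 (0.43 ± 0.12) and the fusion gene MFN1 (0.53 ± 0.13) were the other 2. Removal of any single library except DMSO replicate 1 ended the calls of CYCS, APAF1 and VDAC3 (edgeR adjusted p up to 0.16), and MFN1 was not called without DMSO replicate 2 or 3 or erianin replicate 1 or 2 (up to 0.10). Without DMSO replicate 1, 9 of the 16 were higher and 2 lower (68.8% called), beside 27.8% and 27.4% of all genes tested.

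Genes whose products hold, modify or degrade BH3-only proteins or their partners went both ways. The list held 24 genes and 23 were tested: 5 rose, 4 fell, and the remaining 14 missed the threshold. This was 39.1% called, beside 24.2% of all genes tested. Their median log2 fold change was 0.020, and 0.096 without DMSO replicate 1. PIM1, a kinase that phosphorylates BAD at an inactivating site, fell from 220 ± 33.8 to 65.8 ± 3.73 CPM (-1.74 ± 0.14, edgeR adjusted p = 0.00094). The listed BAD kinases went both ways: PIM2 was called higher (0.47 ± 0.11), and PIM3, AKT1 and RPS6KA1 were not called. Without DMSO replicate 1, PIM2 stayed higher (0.56), and PIM3 (-0.21) and AKT1 (-0.34) were called lower. DYNLL1, the dynein light chain that binds BIM, rose from 85.7 ± 18.6 to 181 ± 6.76 CPM (1.08 ± 0.17, edgeR adjusted p = 0.0059). Its relative DYNLL2 (0.25) was not called. YWHAG, of the adaptor family that retains phosphorylated BAD in the cytosol, rose from 436 ± 53.6 to 729 ± 13.2 CPM (0.74 ± 0.12, edgeR adjusted p = 0.0059). Most of that family was not called: YWHAB (-0.27), YWHAE (0.22), YWHAH (-0.067), YWHAQ (0.15) and YWHAZ (0.39). SFN was called higher, with at most 14 counts in a library. Without DMSO replicate 1, DYNLL2, YWHAE, YWHAQ and YWHAZ were called higher and YWHAB lower. HUWE1, a ubiquitin ligase of MCL1 with a BH3 region of its own, fell from 981 ± 232 to 501 ± 14.4 CPM (-0.97 ± 0.17, edgeR adjusted p = 0.0084). In DMSO replicate 1 it held 147% of the mean of the other controls. Without that library the log2 fold changes were -1.85 for PIM1, 0.93 for DYNLL1, 0.86 for YWHAG and -0.75 for HUWE1. The calls of PIM1, DYNLL1 and YWHAG held when each library was left out in turn, and that of HUWE1 ended without erianin replicate 1 or 2 (edgeR adjusted p up to 0.056). Of the 23, 9 were higher and 7 lower without DMSO replicate 1 (69.6% called, beside 55.3% of all genes tested).

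Genes listed as regulators of the transcription of BH3-only genes were mostly lower where called. Among 21 tested, 6 fell and 1 rose, and the remaining 14 missed the threshold. This was 33.3% called, beside 24.2% of all genes tested (12.3% lower). Their median log2 fold change was -0.42, and -0.11 without DMSO replicate 1. The transcription factor gene TP63 fell from 16.6 ± 9.07 to 3.48 ± 0.187 CPM (-2.25 ± 0.36, edgeR adjusted p = 0.0067). SP1, which binds GC boxes, fell from 312 ± 84.8 to 161 ± 7.28 CPM (-0.96 ± 0.19, edgeR adjusted p = 0.012). JUN, a subunit of AP-1, rose from 21.7 ± 1.17 to 37.3 ± 2.46 CPM (0.78 ± 0.11, edgeR adjusted p = 0.0041). DMSO replicate 1 held 238% of the mean of the other controls for TP63, 156% for SP1 and 94.1% for JUN. Without that library the log2 fold changes were -1.69 for TP63, -0.70 for SP1 and 0.77 for JUN. The calls of TP63 and JUN held when each library was left out in turn, and that of SP1 ended without any 1 erianin library (edgeR adjusted p up to 0.065).

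Of the FOXO and stress-response genes among these regulators, only TRIB3 was called by edgeR with all 6 libraries. TRIB3 was lower (-0.85 ± 0.21, and -1.06 without DMSO replicate 1). FOXO3, DDIT3 and ATF3, often tied to BCL2L11 and PMAIP1, were not called in that fit. FOXO3 stood at 85.5 ± 19.3 CPM in DMSO and 62.3 ± 1.56 CPM in erianin (-0.46 ± 0.16, edgeR adjusted p = 0.080), but fell when DMSO replicate 1 was left out (-0.24, edgeR adjusted p = 0.0044). With all 6 libraries it was called lower by DESeq2 (adjusted p = 0.043) and with the GC content and length offsets (edgeR adjusted p = 0.028). It was also called lower with quality weights (limma adjusted p = 0.00075), which give a deviant library less influence. DDIT3, which encodes CHOP, had 44.3 ± 7.18 and 52.9 ± 5.98 CPM (edgeR adjusted p = 0.27). ATF3 had 16.1 ± 3.12 and 17.9 ± 1.17 CPM (edgeR adjusted p = 0.54). Without DMSO replicate 1, 4 of the 21 regulators were higher and 10 lower (66.7% called, beside 55.3% of all genes tested).

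**Figure D5:**
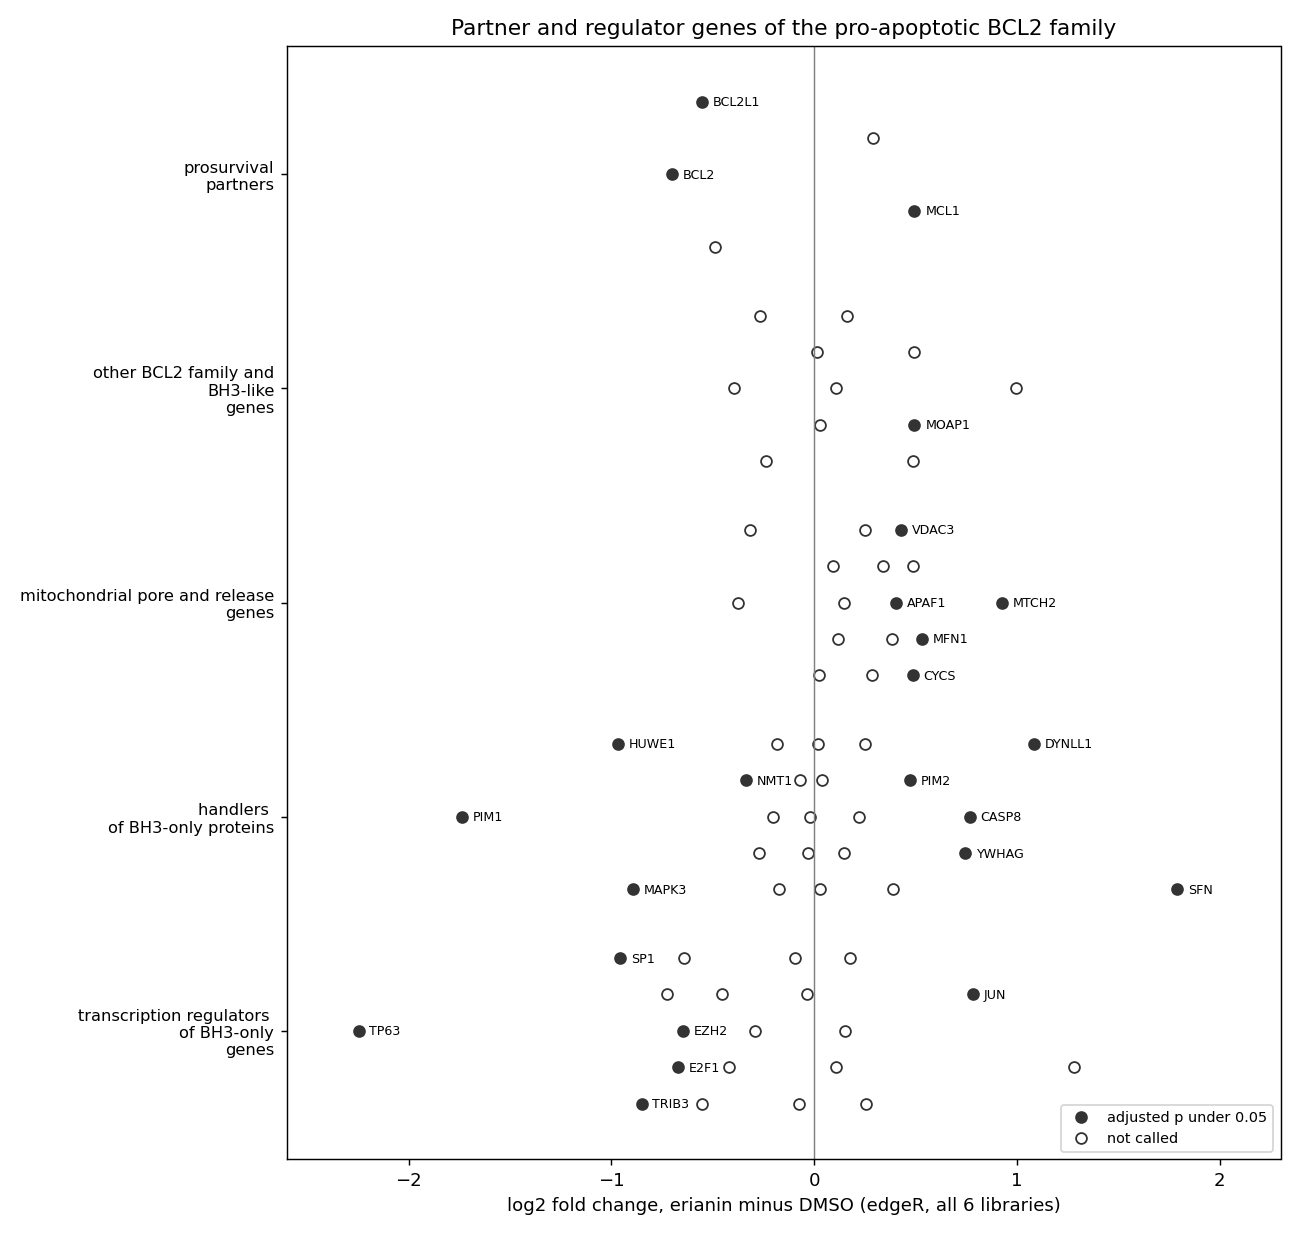
Log2 fold change (erianin minus DMSO, edgeR, all 6 libraries) of tested genes in 5 lists of partners and regulators (1 regulator is not drawn), with vertical offsets within a list for legibility only; filled, labelled points have an adjusted p under 0.05. MCL1 (0.49) lies on the opposite side of 0 from BCL2L1 (-0.55) and BCL2 (-0.70), and the 5 called mitochondrial genes are all above 0.

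The genes most like PMAIP1 and HRK over the 6 libraries were sought among 8057 genes of at least 10 CPM, by root mean square distance between log2 profiles centred on the DMSO mean. For PMAIP1 these were CMC2 (distance 0.038), the copper importer gene SLC31A1 (0.039) and SFT2D1 (0.040). SLC31A1 rose from 30.8 ± 2.90 to 47.4 ± 2.29 CPM (log2 fold change 0.62 ± 0.11, edgeR adjusted p = 0.0094). For HRK they were TMEM39B (distance 0.081), the Fanconi anaemia gene FANCA (0.082) and the glycosylation gene DPAGT1 (0.082). FANCA fell from 196 ± 2.51 to 113 ± 3.03 CPM (-0.79 ± 0.089, edgeR adjusted p = 0.0025). With 2 groups, such likeness mostly reflects a similar difference between them.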

How the data were processed

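RNA from SU-DHL-8 cells was sequenced in 3 DMSO and 3 erianin libraries, grouped and numbered by their titles. The authors deposited whole-number counts per gene and a table of TPM, per the file headers. Tools listed in the submitters' processing notes are STAR 2.7.10, StringTie 2.2.1, fastp 0.23.2 and featureCounts 2.0.1, with the build GRCh38. Neither the annotation release nor the handling of strand is stated there. The deposited TPM followed the counts divided by 1 fixed length for each gene. Its columns reached 39.18% of their nominal sum in DMSO replicate 1 and 63.57% to 66.75% elsewhere, so they were rescaled to equal sums for levels between genes.

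Of 65807 entries, 61 repeats of a symbol were left out. The counts went into edgeR 4.0.16 (R 4.3.3) and its quasi-likelihood test, with TMM scaling, filterByExpr and treatment as the only term, called at an adjusted p of 0.05 over all genes tested. SE was taken as the absolute log2 fold change divided by the root of the F statistic, and intervals use the t quantile of the fit. Alternatives were other scalings, filters, DESeq2 1.42.0, limma 3.58.1 (voom, voom with sample quality weights, and limma-trend on TPM in log2 with a pseudocount of 1 or 0.1), a replicate block, GC content and length offsets (mgcv 1.9.3) and each library left out. A fit on rescaled TPM was chosen after seeing the data. The fits were tested on simulated data.

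The members and lists were chosen with earlier results of these data known. Named genes were all members, 10 partners by name, up to 4 called genes with the smallest p per list, and, for the called member of smallest p in each direction, the 3 genes of at least 10 CPM in the higher group with the nearest profile (pseudocount 0.1 CPM). Of the genes this rule takes, 1 is not reported here. BOK, BCL2L2, PIM2, PIM3, AKT1, RPS6KA1, TRIB3, DYNLL2, YWHAB, YWHAE, YWHAH, YWHAQ, YWHAZ and SFN were named outside this rule, after their values were seen. Positions and overlaps came from GENCODE 29, promoters from RefSeq GRCh38.p14.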

Additional observations from a re-analysis of the deposited data

How the results depend on the processing

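The rise of PMAIP1 and the falls of HRK and BCL2L11 kept their direction in every alternative run, 57 values in all, of which 40 kept the call and 17 lost it. With an adjusted p under 0.05 as the threshold, 3 of the 10 members were called in the main analysis, 6 by limma-voom with sample quality weights and 0 on the log2(TPM + 1) and log2(TPM + 0.1) scales, where DMSO replicate 1 is scaled differently. Leaving out 1 library at a time gave 0 (without erianin replicate 1) to 5 members called (without DMSO replicate 1). Over all genes the count of 2791 became 7408 with the quality weights, 1670 and 1508 on the 2 TPM scales, 4227 with the GC content and length offsets and 745 to 6505 without 1 library.

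Prosurvival partners called went from 3 to 0 on both TPM scales and to 0 to 3 without 1 library. Other BCL2 family genes went from 1 to 2 by DESeq2 and on rescaled TPM, 7 with quality weights, 6 with the offsets, 0 on both TPM scales and 0 to 7 without 1 library. Mitochondrial pore and release genes went from 5 to 3 without a filter, 11 with quality weights, 1 on both TPM scales, and 0 to 11 without 1 library. Handlers of BH3-only proteins went from 9 to 17 with quality weights and to 3 to 16 without 1 library. Transcription regulators went from 7 to 12 by DESeq2, 15 with quality weights, 4 on both TPM scales and 3 to 14 without 1 library. Among the fits without 1 library, the highest count in each list came without DMSO replicate 1 and the lowest without erianin replicate 1 or 2, tied with other libraries in places.

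The uncalled members changed sign in places. With quality weights BAX had a log2 fold change of -0.25, BAK1 -0.17, BID -0.048 and BAD -0.31. With the offsets BAX had -0.029 and BAD -0.056. With total counts alone BBC3 had 0.020 and BIK 0.029. On the log2(TPM + 1), log2(TPM + 0.1) and rescaled scales BBC3 had 0.19, 0.22 and 0.015, and BIK 0.18, 0.43 and 0.15. BIK had 0.16 by limma-voom. Without 1 library at a time BAX ran from -0.21 to 0.24, BAK1 from -0.16 to 0.38, BID from -0.026 to 0.16, BBC3 from -0.32 to 0.079, BAD from -0.27 to 0.57 and BIK from -0.49 to 0.25. Apart from DMSO replicate 1, whose low values are given with the results, the cause was not tested.

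Samples with the same replicate number had correlations of 0.167, -0.143 and 0.231 between their deviations from the group means. Samples with unlike numbers ran from -0.291 to 0.248. With so few libraries per group, and DMSO replicate 1 far from the other controls, these values cannot decide whether the number pairs samples. With the replicate block, the mitochondrial list went from 5 to 2 called and the adjusted p of BCL2L11 from 0.028 to 0.069, BIK had 0.013, and 2296 genes were called. Of called genes 49.0% were higher in the main analysis, 61.7% with upper-quartile scaling, 66.7% with total counts alone, 65.4% on rescaled TPM and 84.3% and 83.8% on the TPM scales. The median of all genes was -0.0033, and 0.11 with total counts alone and 0.20 and 0.28 on the TPM scales. Depth limits BIK most, at 4 to 21 counts.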
